A study of Mus musculus with 3 samples.

Results

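The 39 genes described here form a list of cell cycle and DNA replication genes that was chosen with earlier results of these data known. They were matched by gene symbol, and all 39 were found among 55536 annotated genes, of which 22028 are protein-coding. By role, 11 act in licensing and firing of replication origins or at the replication fork, 3 in deoxynucleotide synthesis, 9 as G1 and S phase cyclins, kinases or transcription factor, 2 as inhibitors of cyclin-dependent kinases, and 14 in G2 and mitosis. They were measured in 3 libraries of ribosomal-RNA-depleted RNA from the chromatin fraction of bone marrow-derived macrophages, primary cells of C57BL/6J mice that had been exposed to 100 ng/ml Lipid A, the bioactive part of bacterial lipopolysaccharide, for 15 min. The libraries form 1 group, carry replicate numbers 1 to 3 and share a donor label, and no allele or further agent is given for them. An unstimulated library was not analysed here, so the values are levels after 15 min of Lipid A and not changes. The spread between libraries may be technical in part, since the labels do not say that they come from separate mice, and their starting RNA was 1 µg, 250 ng and 500 ng. An exact two-sided sign-flip test over 3 libraries cannot give a p below 0.25, so values and spreads are given without tests.

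A dividing cell loads the MCM helicase onto origins in G1, a step that needs Cdc6 and Cdt1, and Cdc45 and Pcna then serve the moving fork in S phase. The D-type cyclins with Cdk4 and Cdk6, and the E-type cyclins with Cdk2, free E2F factors from the retinoblastoma protein, and E2F factors activate many replication genes. Cyclin A and cyclin B with Cdk1 drive entry into mitosis, whose genes are known to carry CHR and CCAAT elements in their promoters and to be repressed in resting cells by the DREAM complex. Bone marrow-derived macrophages grow in response to CSF1 and can leave the cycle when bacterial ligands are sensed, and Cdkn1a and Cdkn1b encode inhibitors that hold cyclin-dependent kinases in check. RNA on chromatin is enriched for transcripts still being made, so a level here stands closer to transcription than a level in whole-cell RNA does.

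The promoters of a few members are shown first, most of them picked for the elements they hold. RefSeq windows on GRCm38.p6, from 250 bases before to 50 bases after the annotated start, were found for 33 of the 39 genes, and 36 windows in all were searched on both strands. Mcm4, Ccnd1, Ccnd2, Ccne2, Ccna2 and Aurkb had no window. The E2F element was searched as TTTCCCGC, TTTCGCGC, TTTGCCGC or TTTGGCGC, the CHR element as TTTGAA, the CCAAT box as CCAAT, the SP1 box as GGGCGG and the TATA box as TATAAA. Capitals mark E2F, CHR and CCAAT matches on either strand in stretches of 150 bases, 120 before the start and 30 from it on, written 5′ to 3′ on the gene's strand. Mcm3 (chr1:20820283-20820432, minus strand) and Mcm6 (chr1:128359676-128359825, minus strand) are printed from the licensing group. Mki67 (chr7:135716350-135716499, minus strand), Cdk1 (chr10:69352883-69353032, minus strand) and Top2a (chr11:99024160-99024309, minus strand) are printed from the G2 and mitosis group. Cdkn1a, the member with the highest level, has 2 annotated starts, at chr17:29090859-29091008 (upstream) and chr17:29093649-29093798 (downstream), both on the plus strand.
Mcm3: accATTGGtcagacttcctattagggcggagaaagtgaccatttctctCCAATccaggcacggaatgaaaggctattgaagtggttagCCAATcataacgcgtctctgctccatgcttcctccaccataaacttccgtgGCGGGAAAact
Mcm6: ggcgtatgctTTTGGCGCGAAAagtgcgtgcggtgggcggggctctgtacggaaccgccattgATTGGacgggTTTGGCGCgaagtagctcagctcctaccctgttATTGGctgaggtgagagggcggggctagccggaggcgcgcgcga
Mki67: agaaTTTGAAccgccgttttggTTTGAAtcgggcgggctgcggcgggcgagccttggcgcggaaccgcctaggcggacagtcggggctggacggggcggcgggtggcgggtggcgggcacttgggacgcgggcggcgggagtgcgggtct
Cdk1: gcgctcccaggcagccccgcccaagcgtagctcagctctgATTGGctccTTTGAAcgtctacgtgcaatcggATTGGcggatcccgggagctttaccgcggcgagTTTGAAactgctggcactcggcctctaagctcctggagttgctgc
Top2a: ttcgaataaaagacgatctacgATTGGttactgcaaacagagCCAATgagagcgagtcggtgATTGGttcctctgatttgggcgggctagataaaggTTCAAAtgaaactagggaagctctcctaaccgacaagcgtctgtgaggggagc
Cdkn1a (upstream): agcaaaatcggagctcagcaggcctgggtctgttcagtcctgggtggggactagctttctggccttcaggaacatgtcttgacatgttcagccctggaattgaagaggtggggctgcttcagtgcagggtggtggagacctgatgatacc
Cdkn1a (downstream): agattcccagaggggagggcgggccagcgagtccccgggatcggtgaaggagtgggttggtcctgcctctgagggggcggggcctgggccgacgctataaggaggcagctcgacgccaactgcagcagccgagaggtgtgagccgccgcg

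An E2F match lay in 6 of the 11 licensing windows (Mcm3, Mcm5, Mcm6, Cdc6, Cdt1 and 1 of the 2 Mcm7 windows) and in 1 of the 12 windows of G2 and mitosis genes (Cdk1), against 2.26% of all 32851 windows of that length. In Mcm6 and in Mcm5 a pair of E2F matches on opposite strands share letters, so that TTTGGCGCGAAA in Mcm6 counts once on each strand. A CHR match lay in 8 of the 12 G2 and mitosis windows and in 2 of the 11 licensing windows (Mcm2 and Cdc45), against 17.9% of all windows. A CCAAT box was held by 11 of the 12 G2 and mitosis windows and by 9 of the 11 licensing windows, against 37.4% of all. The SP1 box was present in 29 of the 36 windows of members, against 35.7% of all, and the TATA box in 2 of 36, against 13.6%. The Cdk1 window also holds an E2F match, and the Mki67 window CCAAT boxes, upstream of the printed stretches. Neither Cdkn1a window held an E2F, CHR or CCAAT match. A match describes the letters of a window and shows neither a bound site nor a cause of any level.

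The macrophage label was checked against marker genes. All 12 macrophage markers had at least 1 TPM (a level scaled for transcript length and to the same total in each library) in every library, and Lyz2, which encodes lysozyme, was highest by mean with 289, 95.6 and 182 TPM in replicates 1, 2 and 3. In the gene table none of 11 neutrophil and granulocyte precursor markers, 6 stem and progenitor markers, 8 lymphoid markers or 5 mast cell markers reached 1 TPM in every library, and Elane, Mpo and Ly6g had 0 counts throughout. The highest of these lists were Ngp with 0.497 ± 0.144, Kit with 0.563 ± 0.307, Cd79a with 0.0467 ± 0.0569 and Cpa3 with 0.0767 ± 0.0666 TPM. Of 6 erythroid markers Alas2 did so with 7.74 ± 2.28 TPM, and of 7 stromal and endothelial markers Kdr did so with 2.91 ± 1.35 TPM (SD, n = 3). In the second quantification 2 of 8 lymphoid markers also reached 1 TPM in every library, Cd3d with 16.7, 11.5 and 20.2 TPM and Ebf1 with 3.59, 1.49 and 3.56 TPM, against at most 4 counts in any library in the gene table, and so did the stromal and endothelial markers Col1a1, Pecam1 and Kdr. Mpo, at 0 counts in the gene table, had 1.55, 0.817 and 2.12 TPM in the second quantification. Expected counts totalled 10974934, 21376404 and 14376665 in replicates 1, 2 and 3. Protein-coding genes took 23.9%, 16.7% and 25.3% of TPM, so TPM values of protein-coding genes run lower in replicate 2, and libraries were also compared after scaling to protein-coding genes. A count of 3, taken as the floor, corresponds in a gene of 1 kb to 0.221, 0.0947 and 0.191 TPM.

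Most of the 39 genes were present on chromatin, most of them below 10 TPM. Of the 39, 32 reached 1 TPM in all 3 libraries, which is 82.1%, against 42.4% of all protein-coding genes. Mcm4 and Bub1 missed that level in replicate 2 only, with 0.98 and 0.91 TPM, and Cdc6, Ccnd2, Ccne1, Ccnb2 and Plk1 lay below it in every library. No member was at 0. With at least 10 expected counts in every library as the rule, 38 members passed, against 50.1% of protein-coding genes, the exception being Ccne1 with 7, 11 and 10 counts. The median over the members was 3.43, 2.35 and 3.47 TPM (mean 3.08 ± 0.635, SD, n = 3), while the median was 0.543 ± 0.158 TPM over all protein-coding genes and 10.1 ± 2.46 TPM over those detected in all libraries. In bulk RNA, few cells with many transcripts and many cells with few transcripts cannot be told apart, so these levels do not say how many of the macrophages were cycling.

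A mean of 10 TPM or more was found for 5 members (12.8%), namely Cdkn1a, Cdk6, Pcna, Cdk4 and Cdkn1b, against 21.5% of all protein-coding genes and 50.6% of the detected ones. By role, the median was 3.86 ± 0.452 TPM for licensing and fork genes, 2.64 ± 0.987 for deoxynucleotide synthesis, 3.39 ± 0.989 for G1 and S genes, 59.3 ± 18.6 for the 2 inhibitors and 2.08 ± 0.736 for G2 and mitosis genes (each SD, n = 3). In order of mean level, 35 of the 38 neighboring pairs overlapped in their range over libraries. The gaps without overlap lay between Cdkn1a and Cdk6, between Pcna and Cdk4, and between Mcm4 and Ccnb2.

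**Figure D1:**
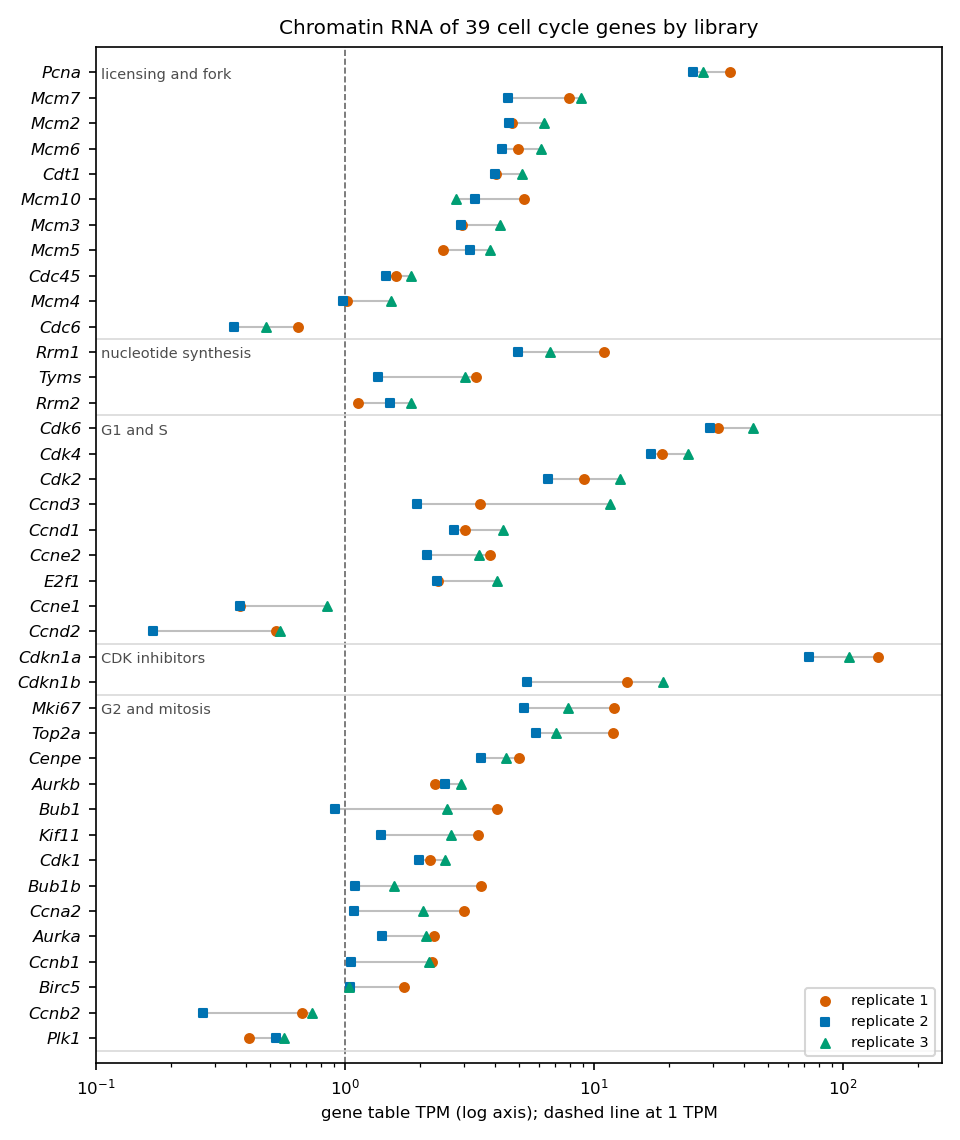
Gene table TPM (log axis) of each of the 39 genes in replicates 1 (circles), 2 (squares) and 3 (triangles), grouped by role and ordered by mean, with a grey line over the range and a dashed line at 1 TPM. Cdkn1a lies apart at 73.2 to 139 TPM, most members lie between 1 and 10 TPM, and Cdc6, Ccne1, Ccnd2, Ccnb2 and Plk1 lie left of the dashed line.

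Among the inhibitors, Cdkn1a (chr17:29090976-29100727, plus strand, mm10), a p53 target that blocks cyclin-dependent kinases, had 139, 73.2 and 106 TPM in replicates 1, 2 and 3 (mean 105.9 ± 32.7, n = 3). It was the highest member in every library, and its lowest value lay above the highest value of any other member, 43.7 TPM for Cdk6 in replicate 3. Cdkn1b (chr6:134920401-134925513, plus strand), the other inhibitor of the same family, had 13.6, 5.38 and 19.0 TPM. It was lowest in replicate 2, and the high value was 3.53 times the low one in TPM and 2.12 times in CPM (counts scaled to library size) after edgeR's TMM normalization.

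The Cdkn1a signal was spread over transcripts from several starts. Cdkn1a-203, a transcript of 1172 bases that begins inside the gene at position 29097900, had 69.7, 54.2 and 56.9 TPM. Cdkn1a-201, which begins at the downstream promoter printed above, had 51.3, 15.8 and 43.2 TPM, and Cdkn1a-205, which begins at position 29093781 at the same promoter, had 10.2, 0.54 and 0.08 TPM. The second quantification, described further on, divided these differently, with 18.3, 5.89 and 7.46 TPM for Cdkn1a-201 and 45.4, 8.73 and 33.7 TPM for Cdkn1a-205. From the upstream promoter, Cdkn1a-204, a processed transcript of 958 bases, had 7.32, 2.60 and 5.46 TPM, and Cdkn1a-202 had 0, 0.09 and 0.20 TPM. At Cdkn1a, the start of Cdkn1a-201 lies inside AC167363.2, an opposite-strand gene of the TEC biotype (chr17:29093416-29094461), which had 119, 172 and 166 TPM from 1361, 4395 and 2078 counts. Whether reads were assigned by strand is not given in the sources used here, so reads from the stretch that Cdkn1a and AC167363.2 share cannot be told apart. In the first quantification AC167363.2 was higher and Cdkn1a-201 lower in replicate 2 than in replicate 1. In replicate 3, however, AC167363.2 was also high with 166 TPM, while Cdkn1a-201 had 43.2 TPM. Whether reads passed between them was not tested.

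In the G1 and S group the kinases stood above their cyclins in the gene table. Cdk6 (chr5:3341485-3531008, plus strand), a partner of D-type cyclins, had 31.6, 29.3 and 43.7 TPM, and Cdk4 (chr10:127063534-127067920, plus strand), the other partner, had 18.7, 16.9 and 23.9 TPM. In TPM both were highest in replicate 3 and lowest in replicate 2, but scaled to protein-coding genes both were highest in replicate 2 and lowest in replicate 1, with 132, 176 and 173 TPM for Cdk6 and 78.3, 101.5 and 94.4 TPM for Cdk4. The ranges of the 2 kinases did not overlap on either scale. Cdk6 had 2225, 3019 and 3160 counts, of which 1942, 2262 and 2741 were assigned to Cdk6-202, its transcript of 11525 bases. Cdk2 (chr10:128697939-128705031, minus strand), which acts with cyclins E and A, had 9.16, 6.51 and 12.7 TPM. In the second quantification Cdk2 had 10.2, 6.31 and 12.0 TPM and overlapped its partner Ccne2 with 11.1, 5.27 and 8.93 TPM.

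The D-type cyclins were lower than Cdk4 and Cdk6 in every library. Ccnd1 had 3.03, 2.73 and 4.32 TPM, and Ccnd3 had 3.49, 1.94 and 11.6 TPM. The value for Ccnd3 in replicate 3 stood apart through Ccnd3-220, a transcript of 299 bases with 7.30 TPM from only 8.94 counts. The high and low values of Ccnd3 differed 5.95-fold in TPM and 1.46-fold in TMM-scaled CPM. Ccnd2 had 0.53, 0.17 and 0.55 TPM in the gene table, a level that depended on the quantification.

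Of the E-type cyclins, Ccne2 had 3.82, 2.13 and 3.47 TPM, while Ccne1 had 0.38, 0.38 and 0.85 TPM from 7, 11 and 10 counts. In Ccne2 the gene Ints8 overlaps on the opposite strand. The range of Ccne2 lay above that of Ccne1 in the gene table, but with few counts for Ccne1 its counting error alone is 37.8% in replicate 1. In the second quantification Ccne1 had 5.92, 2.25 and 6.75 TPM and overlapped Ccne2. E2f1, which activates replication genes, had 2.37, 2.35 and 4.08 TPM. It was highest in replicate 3.

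Across libraries, the median log2(TPM + 1) of the G1 and S genes exceeded that of the G2 and mitosis genes by 0.31, 0.58 and 0.67 (mean 0.52 ± 0.19, SD, n = 3). The difference had the same sign in all 3 libraries. Cdk6 and Cdk4 lay above every G2 and mitosis gene in each library, while Ccnd2 and Ccne1 lay below the mitotic median.

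Among licensing and fork genes, Pcna (chr2:132249162-132253314, minus strand), the sliding clamp of DNA polymerases, was highest, with 35.2, 25.0 and 27.5 TPM from 340, 611 and 328 counts. Mcm7 and Mcm2, subunits of the replicative helicase, had 7.96, 4.50 and 8.90 TPM and 4.70, 4.54 and 6.28 TPM. The other helicase subunits Mcm3, Mcm5 and Mcm6 lay between 2.48 and 6.15 TPM in every library, and Mcm4 was lower, with 1.02, 0.98 and 1.53 TPM. These 6 proteins form a ring together, and Mcm4 RNA lay below that of each other subunit in every library. Mcm7 overlaps Ap4m1 and Cops6 on the opposite strand.

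Cdt1, which loads the helicase, had 4.05, 4.02 and 5.15 TPM, while Cdc6, which loads it together with Cdt1, had 0.65, 0.36 and 0.48 TPM from 26, 48 and 31 counts. The ranges of the 2 loaders did not overlap. Mcm10, needed to start the fork, had 5.23, 3.34 and 2.79 TPM, and Cdc45, part of the active helicase, had 1.60, 1.46 and 1.84 TPM. Cdt1 lies within Gm20388, a longer gene annotated on the same strand, and how reads were split between them is not given in the sources used here.

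In the deoxynucleotide group, Rrm1, the large subunit of ribonucleotide reductase, had 11.0, 4.94 and 6.66 TPM, above Rrm2, the small subunit, with 1.13, 1.52 and 1.84 TPM. The range of Rrm1 lay above that of Rrm2. Tyms, which makes thymidylate, had 3.37, 1.36 and 3.04 TPM.

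Mki67 and Top2a were the highest genes of the G2 and mitosis group in the gene table. Mki67 (chr7:135689784-135716361, minus strand), which encodes a protein of the mitotic chromosome surface and is a common proliferation marker, had 12.1, 5.26 and 7.85 TPM from 1620, 1590 and 1208 counts. Top2a (chr11:98992943-99024189, minus strand), the topoisomerase that untangles chromosomes, had 12.0, 5.85 and 7.02 TPM. Both were highest in replicate 1 and lowest in replicate 2 in TPM. Cenpe, a kinetochore motor, followed with 4.98, 3.51 and 4.44 TPM.

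The kinases and cyclins that drive mitosis were lower in the gene table, though not Cdk1 in the second quantification, where its 16.1, 7.20 and 15.4 TPM stood beside 17.9, 5.22 and 7.61 TPM for Mki67. Cdk1 had 2.20, 1.98 and 2.52 TPM, Ccnb1 2.23, 1.06 and 2.17 TPM, Ccna2 3.00, 1.09 and 2.05 TPM, and Ccnb2 0.67, 0.27 and 0.74 TPM. Of the mitotic kinases, Aurkb had 2.30, 2.52 and 2.92 TPM, Aurka 2.27, 1.41 and 2.12 TPM, and Plk1 0.41, 0.53 and 0.57 TPM. Plk1 had 11, 32 and 14 counts and lay below 1 TPM in every library, while Aurkb lay above 2 TPM in every library. The checkpoint kinases Bub1 and Bub1b, with 4.08, 0.91 and 2.56 TPM and 3.53, 1.10 and 1.57 TPM, spread most among libraries in this group. In TMM-scaled CPM their high and low values differed 1.67-fold and 1.41-fold, against 4.48-fold and 3.21-fold in TPM. Birc5 (survivin), of the chromosomal passenger complex, had 1.73, 1.05 and 1.04 TPM, and Kif11, a motor of the spindle poles, had 3.43, 1.40 and 2.66 TPM.

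Members varied among libraries about as much as protein-coding genes of like level. Genes of like level are those whose mean TPM, scaled to protein-coding genes, lay within the range of the members, 1.80 to 479. Within that range they were not matched to the levels of the members. The median coefficient of variation was 30.9% for the 39 genes and 31.4% for 11136 protein-coding genes of like level. On log2(protein-coding TPM + 1), that is TPM scaled to protein-coding genes with a pseudocount of 1, the median SD was 0.30 for both. Without replicate 1 the median SD of the members was 0.19, and that of genes of like level was not computed. A coefficient above 50% was found for 6 members, namely Ccnd2, Ccnd3, Ccne1, Cdkn1b, Bub1 and Bub1b. The share of genes of like level above 50% was not computed.

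The role groups nevertheless leaned toward different libraries, a pattern chosen for description after the values were seen. Licensing genes were highest in replicate 2 and G2 and mitosis genes in replicate 1 once TPM was scaled to protein-coding genes. The median deviation of the 11 licensing genes from their mean over libraries was -0.17, 0.19 and 0.05 (log2) in replicates 1, 2 and 3, with 7 of 11 highest in replicate 2, against 30.8% of genes of like level. The 14 G2 and mitosis genes deviated by 0.24, -0.13 and -0.05, with 9 of 14 highest in replicate 1, against 34.9% of genes of like level. Genes of like level deviated by -0.01, -0.07 and 0.08.

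Single genes show the contrast. Mcm5 deviated by -0.44, 0.38 and 0.06, and its TMM-scaled CPM were 4.80, 13.9 and 7.51. Mcm2 had 14.7, 26.8 and 17.3 TMM-scaled CPM, again highest in replicate 2. Mki67 ran the other way, with deviations of 0.45, -0.21 and -0.24 and TMM-scaled CPM of 205, 134 and 119. The exceptions in the mitotic group were Aurkb, Plk1, Cdk1 and Cenpe, highest in replicate 2, and Ccnb2, highest in replicate 3. In the licensing group Cdc6 and Mcm10 were highest in replicate 1, and Mcm4 and Mcm7 in replicate 3. On TMM-scaled counts, 10 of 11 licensing genes were highest in replicate 2, where 41.5% of genes of like level were highest, and 10 of 14 mitotic genes were highest in replicate 1, where 37.3% were.

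The deviation of mitotic genes minus that of licensing genes was 0.42, -0.32 and -0.10. With edgeR's TMM it was 0.44, -0.49 and 0.0058, with DESeq2's size factors 0.50, -0.51 and -0.0021, and in the second quantification 0.32, -0.29 and -0.06, so replicate 1 was above 0 and replicate 2 below 0 under each of them, while replicate 3 changed sign under TMM. Marker values of other cell types, here not scaled to protein-coding genes and mostly near the floor, also differed between libraries. The summed TPM of the 11 granulocyte precursor markers was 1.80, 2.49 and 1.55, and that of the 6 stem and progenitor markers 0.99, 0.46 and 0.84. Of the 7 stromal and endothelial markers 1 was detected, and their sum was 4.19, 2.99 and 5.34 TPM. Among them, picked after their values were seen, the collagen genes Col1a1, Col1a2 and Col3a1 had 0 counts each in replicate 1, 46, 75 and 66 in replicate 2, and 19, 18 and 15 in replicate 3. In TPM Col1a1 and Col1a2 were still highest in replicate 2, but Col3a1 had 0, 0.54 and 0.93 TPM. In the second quantification Col1a1 had 1.62, 1.17 and 1.74 TPM, while Col1a2 and Col3a1 were lowest in replicate 1. Kdr, the highest of the 7 stromal and endothelial markers, had 240, 213 and 238 counts and 3.94, 1.38 and 3.42 TPM. Replicate 2 also had the most counts and the least starting RNA. The part of these values in the pattern was not tested.

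**Figure D2:**
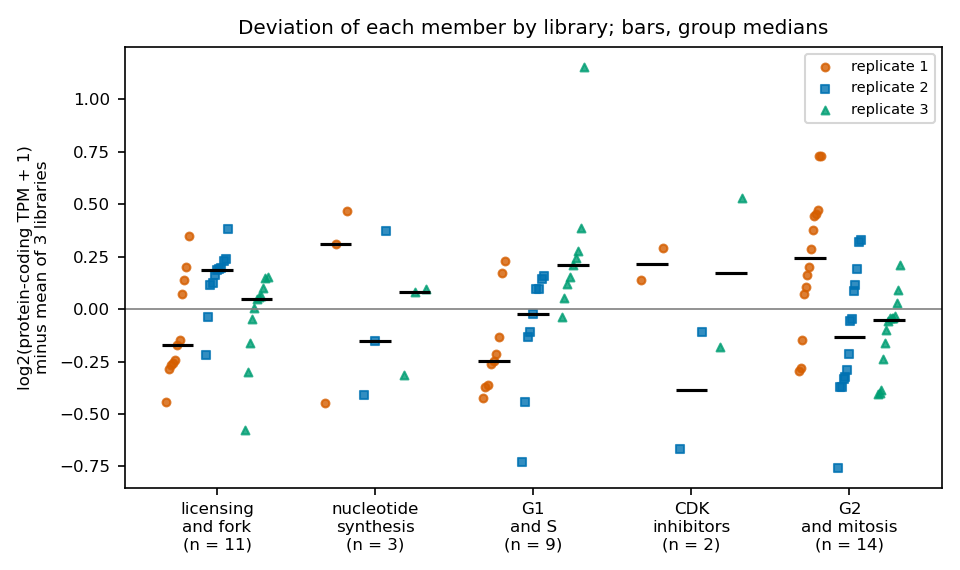
Deviation of every member from its mean over the 3 libraries on log2(protein-coding TPM + 1), by role group, with circles, squares and triangles for replicates 1, 2 and 3 and bars at group medians. Licensing genes center on -0.17, 0.19 and 0.05 and G2 and mitosis genes on 0.24, -0.13 and -0.05 in replicates 1, 2 and 3.

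The other genes of the pathway, from 9 lists of 151 genes chosen with the results of these data known, were mostly present as well. The share of a list at 1 TPM in all libraries ran from 40% for other inhibitors of cyclin-dependent kinases to 100% for the p53 list. Of all protein-coding genes, 42.4% reached that level. Of 39 matched genes for origin recognition and the replisome, 35 reached 1 TPM in all libraries, led by Orc3 with 59.3 ± 23.4 TPM and Pold3 with 47.1 ± 11.9 TPM (SD, n = 3), and at the low end were Pold2 with 1.02 ± 0.111 and Fen1 with 0.230 ± 0.176 TPM. Of 16 E2F and pocket protein genes, 13 did so, with Rb1 at 83.0 ± 26.5 and Rbl2 at 23.1 ± 6.85 TPM highest, and E2f2 at 0.843 ± 0.146 and E2f7 at 0.813 ± 0.323 TPM lowest. All 12 genes of the p53 list did so, among them Mdm4 with 136 ± 39.8 TPM and Mdm2, the ubiquitin ligase of p53, with 111 ± 23.1 TPM, and the lowest were Bbc3 with 2.67 ± 1.86 and Sesn2 with 1.85 ± 0.223 TPM. Of 5 other inhibitors of cyclin-dependent kinases, 2 did so, Cdkn1c and Cdkn2c with 2.47 ± 1.41 and 1.32 ± 0.333 TPM, while Cdkn2d was at 0.40 ± 0.132 and Cdkn2a at 0.0533 ± 0.0551 TPM. In the second quantification, described further on, E2f7 had 35.95, 14.93 and 28.95 TPM and Bbc3 14.33, 10.53 and 23.32 TPM. Their low levels thus depended on the quantification, while Fen1 and Cdkn2a stayed below 1 TPM in every library.

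Of 10 genes for nucleotide supply, 7 reached 1 TPM in all libraries, with Samhd1, which breaks down deoxynucleotides, at 210.2 ± 75.1 TPM and Tk1, a thymidine kinase, at 32.2 ± 11.8 TPM, and with Dctd at 0.343 ± 0.0851 TPM lowest. For mitotic entry 8 of 12 genes did so, led by the phosphatase Cdc25b with 9.56 ± 2.38 and the checkpoint kinase Chek2 with 7.93 ± 1.31 TPM, and Cdc25c with 0.970 ± 0.620 and Melk with 0.600 ± 0.175 TPM were lowest. For kinetochore and spindle checkpoint 12 of 16 did so, led by Cenpa, the centromeric histone H3 variant, with 107 ± 48.8 TPM and Incenp with 33.7 ± 4.73 TPM, and the lowest were Ttk with 1.03 ± 0.548 and Spc24 with 0.493 ± 0.127 TPM. Motors, condensin and cytokinesis genes did so in 16 of 21 cases, led by the condensin subunit Smc4 with 48.3 ± 18.6 TPM and the motor Kif23 with 23.8 ± 10.9 TPM, and Kif4 with 1.03 ± 0.231 and Hmmr with 0.957 ± 0.45 TPM were lowest. Genes of the anaphase-promoting complex and separase list did so in 17 of 19 cases, led by Anapc1 with 80.0 ± 19.8 and Anapc5 with 44.0 ± 10.02 TPM. Its lowest genes were Ube2c with 0.447 ± 0.127 and Cdc20 with 0.297 ± 0.0764 TPM, both of which act with the complex in mitosis. Several of these low levels depended on the quantification. In the second one Ube2c had 9.74, 4.11 and 8.50 TPM and Cdc25c 13.7, 6.80 and 11.0 TPM. Spc24 had 6.29, 5.08 and 9.09 TPM there and Hmmr 7.55, 3.50 and 5.95 TPM. Dctd, Melk and Cdc20 stayed below 1 TPM there in at least 1 library. The order of leading genes could change too. In the second quantification Chek2 had 50.8, 35.1 and 59.9 TPM, above Cdc25b with 14.5, 7.55 and 13.8 TPM.

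Some of the 9 lists leaned toward a library. Of the 21 motor, condensin and cytokinesis genes, none of them a member, 18 were highest in replicate 1 after scaling to protein-coding genes, and their median deviation was 0.35, -0.16 and -0.20. On TMM-scaled CPM 15 were highest in replicate 1, and the deviations were 0.27, 0.01 and -0.19. Of the 16 kinetochore genes 8 were highest in replicate 1, with deviations of 0.17, -0.25 and -0.09, and 10 were lowest in replicate 2, where 47.1% of genes of like level were lowest. Of the 39 origin and replisome genes 19 were highest in replicate 2, with deviations of -0.04, 0.07 and -0.05. The 12 genes of mitotic entry deviated by 0.11, -0.07 and -0.01, with 6 highest in replicate 1, but by -0.02, 0.12 and -0.03 on TMM-scaled CPM, with 4 highest in replicate 1 and 6 in replicate 2. Of the 19 genes of the anaphase-promoting complex and separase list 11 were highest in replicate 3, against 34.3% of genes of like level, with deviations of -0.05, -0.10 and 0.09. On TMM-scaled CPM these were -0.13, 0.10 and -0.05, with 10 highest in replicate 2. Genes of like level were highest in replicate 1 in 34.9% and in replicate 2 in 30.8% of cases.

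**Figure D3:**
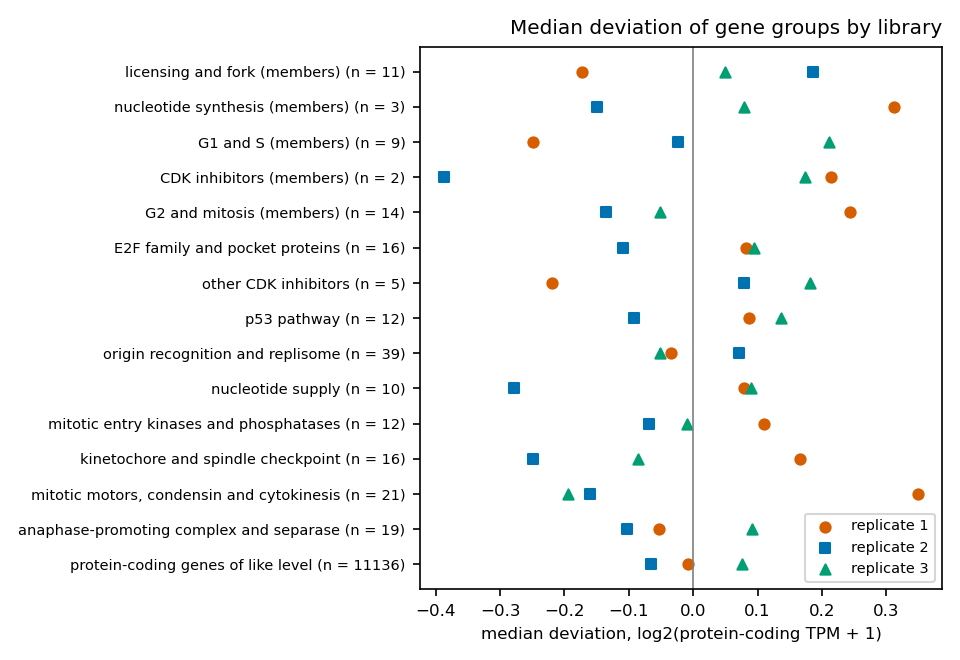
Median deviation from the mean over libraries, on log2(protein-coding TPM + 1), for each role group of members and each pathway list, with circles, squares and triangles for replicates 1, 2 and 3. Motors, condensin and cytokinesis genes lie at 0.35 in replicate 1 and below 0 in the others, and licensing genes lie at 0.19 in replicate 2.

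Much of the signal of the members was assigned to isoforms annotated as retaining an intron, an RNA form that is common on chromatin. Of the 39 genes, 29 have such an isoform, and its median share of the gene's TPM was 55.8%, 46.4% and 51.2% in replicates 1, 2 and 3 (mean 51.1% ± 4.67, n = 3). Over 6170 detected protein-coding genes with such an isoform it was 47.8% ± 3.24, so the members lay close to them. Of the 29, 16 exceeded 50%, against 46.2% of the 6170 genes. In expected counts, which do not scale for the short length of these isoforms, the median share was 25.6% ± 4.93.

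The highest shares were in Aurkb with 79.0% ± 7.14 and Ccnb1 with 78.7% ± 6.82, followed by Cdk4 with 72.4% ± 0.820, Cdk1 with 67.2% ± 13.7 and Rrm1 with 63.8% ± 10.6. The first 2 rest on few counts. In expected counts the share was 54.65%, 45.84% and 58.79% of 21, 49 and 29 counts for Aurkb. For Ccnb1 it was 66.89%, 62.87% and 44.94% of 30, 30 and 36 counts. In the second quantification the mean share was 77.0% for Aurkb, 83.7% for Ccnb1, 75.4% for Cdk4 and 84.5% for Rrm1, but 24.9% for Cdk1, whose share of expected counts was 12.5%, 20.4% and 9.62%. Cdk4 varied least among libraries, with 71.4%, 72.9% and 72.8%. Pcna had 61.7% ± 4.65, and 2 of its isoforms, Pcna-202 and Pcna-204, held most of it. Low shares were found in Cdc6 with 0%, Ccne1 with 6.59% ± 11.4, Ccna2 with 6.82% ± 3.07, Cdk6 with 13.1% ± 4.55 and Cdc45 with 14.3% ± 5.36, where Cdc45 had 43.2% in the second quantification. In Top2a, which has no such isoform, the share of protein-coding transcripts was below 50%, with the rest in processed transcripts.

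**Figure D4:**
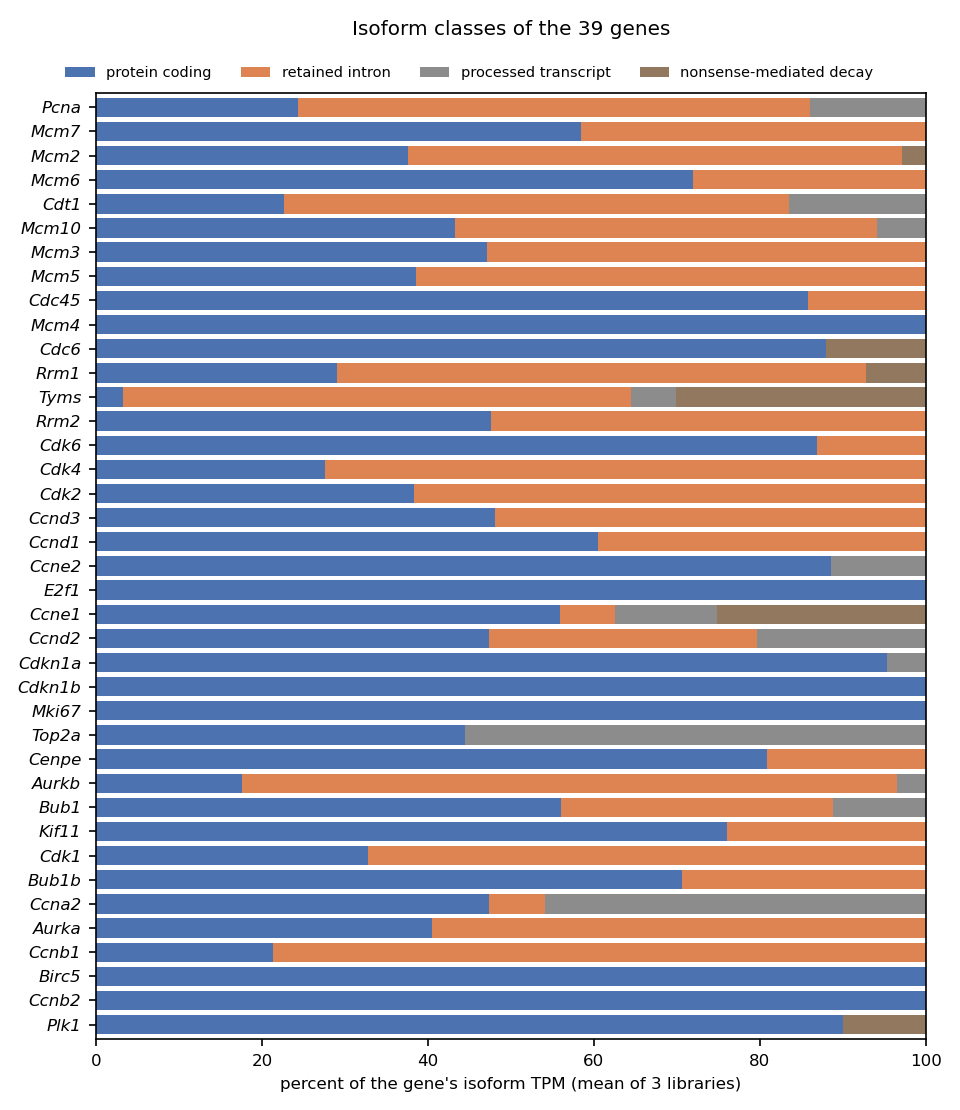
Mean share of each gene's TPM, over 3 libraries, in isoforms annotated as protein coding, retained intron, processed transcript or nonsense-mediated decay, with genes in the order of the plot of levels. Retained-intron isoforms take 79.0% of Aurkb and 72.4% of Cdk4, and Mki67, Cdkn1b and E2f1 have none.

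A second deposited quantification of the same libraries gave higher values for most members, as for most detected genes. Its TPM exceeded that of the gene table by a median ratio of 1.53 over the 39 genes (0.867 to 13.8), close to the 1.59 of 9345 detected protein-coding genes, and 36 members reached 1 TPM in all libraries, against 53.1% of protein-coding genes. The ratio was over 3 for 5 members, that is 12.8%, against 9.13% of detected protein-coding genes. These were Ccnd2 with 13.8, Ccne1 with 9.27, Birc5 with 6.06, Cdk1 with 5.77 and Tyms with 3.37. The ratio of Ccnd2 was 7.66 without replicate 1, where a transcript of 115 bases had 8.42 TPM from 2.16 counts.

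Within Cdk1, a transcript of 695 bases held 91, 88 and 107 counts in the second quantification, against 2.23, 0 and 0 counts in the first. Birc5 had 10.4, 4.04 and 8.68 TPM there, with 512, 524 and 576 counts for Birc5-202, against 53, 34 and 49. Ccnd2 had 11.7, 2.77 and 2.75 TPM there. For Ccnd2 the deposited interval of TPM in replicate 1 ran from 0.63 to 125.9, and the gene table's TPM lay outside its own interval in all 3 libraries. In all, 6 members lay outside their interval in at least 1 library, among them Cdkn1a in 2. The share of all protein-coding genes outside their interval was not computed. Cdkn1a differed by a ratio of 1.09 between the quantifications and Cdk6 by 1.18. Plk1 and Cdc6 stayed among the lowest members in both, with ratios of 2.35 and 1.59.

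**Figure D5:**
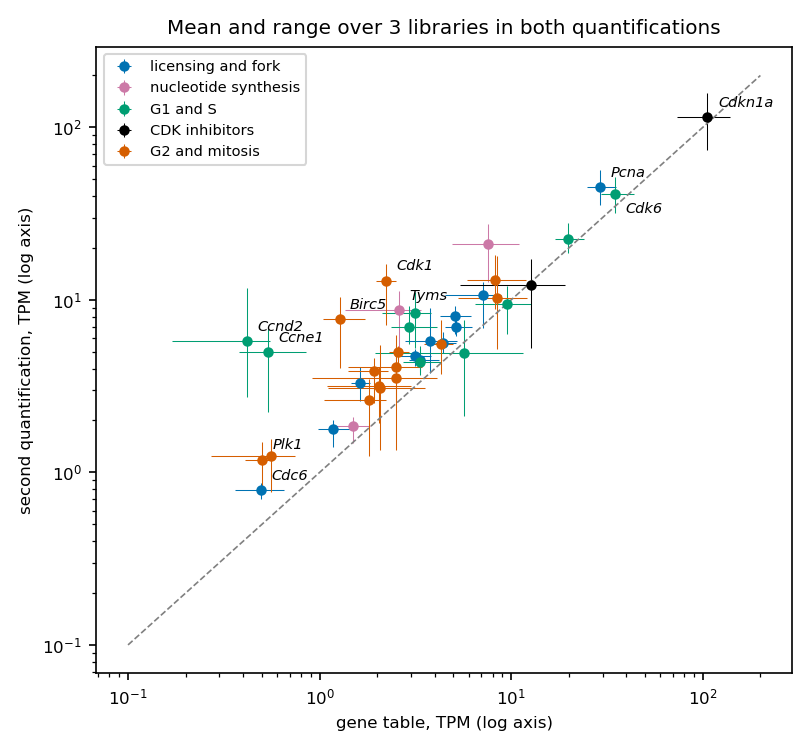
Mean TPM over 3 libraries in the gene table (x, log axis) against the second deposited quantification (y, log axis), with bars from the lowest to the highest library and a dashed line of equality, colored by role. Ccnd2, Ccne1, Birc5, Cdk1 and Tyms lie far above the line and Cdkn1a lies close to it.

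Of the 39 genes, 17 overlap another annotated gene, 15 of them on the opposite strand. The share of all protein-coding genes with such an overlap was not computed. Some of these neighbors had 0 counts in every library, and some had higher levels than the member. Ufd1, opposite Cdc45, had 47.2, 33.8 and 53.2 TPM, against 1.60, 1.46 and 1.84 TPM for Cdc45. Exosc9, opposite Ccna2, had 8.53, 5.49 and 12.1 TPM, and LTO1, opposite Ccnd1, had 13.5, 11.7 and 16.6 TPM. Whether reads of these neighbors were counted for the members was not tested.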

How the data were processed

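Each library had a gene table, a transcript table and a second transcript quantification. Per the file headers, the authors deposited expected counts, some of them fractional, and TPM, whose values share 1 total over all features of a table. The authors' transcript table adds, per the file headers, how many percent of a gene's abundance each isoform takes. The second tables hold estimated counts and TPM made by the authors in another way, and were summed per gene. The text deposited with the tables names mm10 and annotation M21, while for the aligner, the quantification program, their versions and strand use nothing is given in the sources used here. Nothing was filtered out for the member values, and detection meant at least 1 TPM in all 3 libraries.

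Scaling to protein-coding genes divided TPM by their sum, and deviations used log2 with a pseudocount of 1. Counts were rounded to whole numbers for TMM in edgeR 4.0.16 and size factors in DESeq2 1.42.0 (R 4.3.3). No test was made, since there is 1 group. Other steps used Python 3.11.15 with pandas 2.3.3. A calculation of median list deviations was tried on simulated data, with 10 lists of 20 genes, most but not all of them raised in replicate 1. Its largest error was 0.157 (log2). That is close in size to the deviations of -0.17 and 0.19 of the licensing genes in replicates 1 and 2. It exceeds those of -0.13 and -0.05 of the G2 and mitosis genes in replicates 2 and 3. Lists of 11 or 14 genes, the sizes of these groups, were not simulated. Depth limits the low members, since a gene with few counts carries a large counting error.

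The members and the pathway and marker lists were chosen with earlier results of these data known. The text names all 39 members, the 2 highest and 2 lowest genes of each pathway list and the highest gene of each marker list, and a few markers picked after their values were seen. A gene that this rule names is not reported here. Of 40 genes listed for the replisome, Claspn was not matched. Promoter sequences are from RefSeq on GRCm38.p6. Alternatives were the second quantification, other scalings, other thresholds and pseudocounts, and leaving out each library.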

Additional observations from a re-analysis of the deposited data

How the results depend on the processing

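With 5 TPM as the threshold 8 of 39 members were detected, and the share of all protein-coding genes at that threshold was not computed. Leaving out 1 library gave 32 to 34 detected members. In the second quantification the median level was 5.62 TPM for all members, 4.88 for licensing, 8.73 for deoxynucleotide synthesis, 8.15 for G1 and S and 4.12 for G2 and mitosis genes. Scaled to protein-coding genes these medians were 14.1, 17.8, 11.8, 15.3 and 9.29 TPM, and that of the 2 inhibitors was 266.9 TPM, which follows from the smaller total. With members of at least 1 TPM on average, the G1 and S median was 6.03 TPM. The difference of G1 and S minus G2 and mitosis genes was 0.84 in the second quantification and 0.88 with that filter, against 0.52. The median retained-intron share was 25.6% in expected counts and 46.0% in the second quantification. The mitotic minus licensing deviation in replicate 3 changed sign from -0.10 to 0.0058 under TMM, and was -0.0021 with DESeq2's size factors and -0.065 in the second quantification. In replicate 2 it was -0.49 and -0.51 under TMM and DESeq2, against -0.32. Leaving out 1 library gave a median SD of the members of 0.19 (without replicate 1) to 0.32, against 0.30. The cause of these changes was not tested beyond what is stated. The scalings and the second quantification applied to that deviation, and the second quantification of each single member, were chosen after seeing the data. Of the single members, 29 moved by more than their spread over libraries in the second quantification and 10 did not. The other 87 values under alternatives kept their direction and stayed within 1 SD over libraries or, for counts, median SDs and deviations, within 1.5 times. No paired analysis was possible because there is only 1 group. Low counts limit Ccne1, Ccnb2, Plk1, Ccnd2 and Cdc6, and the lack of a control limits every value to a level.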
